A study of Mus musculus with 9 samples.

Results

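The replication-dependent histone genes were followed through 28 of the 174289 bidirectional regions in which nascent transcription was counted. A bidirectional region is a place where RNA polymerase leaves in both directions. The genes were chosen by symbol, H1f1 to H1f5 and H2ac, H2bc, H3c or H4c followed by a number, and older names beginning with Hist were matched through RefSeq's gene table for GRCm38.p6, the assembly of the mm10 build. This gave 67 genes, 63 by their current symbol and 4 through an older name, of which 54 lie on chromosome 13, 10 on chromosome 3 and 3 on chromosome 11. A region was taken when the centre of its 600 bp counting window lay within 1 kb of either end of such a gene, and each region was counted once. By this rule 21 regions lie on chromosome 13, 4 on chromosome 3 and 3 on chromosome 11, and they serve 44 of the 67 genes. The pseudogene H2af-ps2, whose older name is Hist1h2al, lies on chromosome 13 outside the clusters and was left out; its region went from 100.6 to 118 and 107 CPM, with no call.

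Replication-dependent histones package newly copied DNA, so their genes are transcribed mainly while a cell replicates its DNA. Their transcripts lack a poly(A) tail and end instead in a stem-loop, which is bound by the stem-loop binding protein and cut with the help of the U7 small nuclear ribonucleoprotein. The coactivator NPAT, a target of cyclin E and CDK2, gathers with this machinery on the histone clusters in nuclear bodies called histone locus bodies. Embryonic stem cells divide quickly, with short gaps between rounds of replication.

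The cells were mouse embryonic stem cells in which the Firre gene, the source of an X-linked nuclear long non-coding RNA, was knocked out and which carried a Firre transgene that doxycycline induces. All groups shared this genotype. Untreated cells (0 min) were set against cells given 1 ng/μL doxycycline for 15 or 30 min, with 3 libraries at each time. PRO-seq, a nuclear run-on assay that tags RNA held by engaged polymerase, was used, so the values measure transcription under way and not stored RNA. The cells grew on gelatin in medium with serum, LIF and inhibitors of MEK and GSK3. No group received doxycycline without the transgene, so drug and transgene cannot be told apart. The promoter of the transgene, the number of clones and whether numbered libraries came from separate cultures are not given in the sources used here, so p-values measure only the spread between these libraries.

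Reads in the regions came to between 3813365 and 5980366 a library, and levels below are in CPM, counts per 1000000 of those reads after TMM scaling. The knocked-out and re-expressed gene behaved as labelled: summed over 8 regions, Firre gave 2.48, 4.92 and 2.62 CPM at 0 min, 274, 338 and 274 CPM at 15 min, and 791, 776 and 787 CPM at 30 min. Markers of stem cells, of which 8 of 10 genes had a region, summed to 1623 to 1740 CPM at 0 min, 1786 to 1829 CPM at 15 min and 1709 to 1815 CPM at 30 min, while Pou5f1 and Esrrb had no region. Markers of fibroblasts (2 of 6 genes with a region) summed to at most 4.46 CPM in any library and those of primitive endoderm (4 of 6) to at most 18.7 CPM. On the first 2 principal components, library 3 of 15 min stood apart from the other 15 min libraries and library 2 of 0 min from the other 0 min libraries. Drosophila nuclei had been added to the samples per the labels but their reads were not used here, so every change is relative to the other mouse regions.

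Upstream sequences are given for 6 genes, each the first 250 bases before the annotated start or the part of them outside the neighbouring histone gene. They are from RefSeq (GRCm38.p6), 5′ to 3′ on the strand of the gene. H1f1 and H1f4 encode linker histone H1, H2ac15 shares its whole upstream stretch with H2bc15 on the other strand, H3c11 is the H3 gene with the lowest adjusted p, H4c11 is an H4 gene that passed no test, and H2aw lies in the chromosome 11 cluster. Capitals mark matches on either strand to 4 motifs of histone promoters. The box named for its letters CCAAT was one, the TATA box was searched as TATAAA, the octamer as ATTTGCAT and the H1 box as AAACACA.
H1f1 (chr13:23763418-23763667, plus strand): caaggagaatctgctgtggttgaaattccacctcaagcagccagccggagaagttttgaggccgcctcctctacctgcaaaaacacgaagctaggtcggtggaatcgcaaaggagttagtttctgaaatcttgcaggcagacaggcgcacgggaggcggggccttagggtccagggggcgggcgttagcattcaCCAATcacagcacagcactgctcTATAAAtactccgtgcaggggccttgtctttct
H1f4 (chr13:23622559-23622808, minus strand): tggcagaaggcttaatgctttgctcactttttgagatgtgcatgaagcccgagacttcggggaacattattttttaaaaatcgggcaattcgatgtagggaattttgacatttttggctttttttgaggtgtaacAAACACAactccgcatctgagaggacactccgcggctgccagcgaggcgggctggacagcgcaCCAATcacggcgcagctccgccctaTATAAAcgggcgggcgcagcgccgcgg
H2ac15 (chr13:21753913-21754075, minus strand): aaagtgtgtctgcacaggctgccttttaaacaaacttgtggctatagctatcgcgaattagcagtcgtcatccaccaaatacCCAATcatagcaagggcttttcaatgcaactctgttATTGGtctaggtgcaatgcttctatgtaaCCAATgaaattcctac
H3c11 (chr13:21783398-21783647, minus strand): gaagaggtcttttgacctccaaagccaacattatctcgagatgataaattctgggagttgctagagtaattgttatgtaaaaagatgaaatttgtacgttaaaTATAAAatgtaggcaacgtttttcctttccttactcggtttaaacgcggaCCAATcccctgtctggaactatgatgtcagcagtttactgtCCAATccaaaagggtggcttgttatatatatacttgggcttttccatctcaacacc
H4c11 (chr13:21734784-21735033, plus strand): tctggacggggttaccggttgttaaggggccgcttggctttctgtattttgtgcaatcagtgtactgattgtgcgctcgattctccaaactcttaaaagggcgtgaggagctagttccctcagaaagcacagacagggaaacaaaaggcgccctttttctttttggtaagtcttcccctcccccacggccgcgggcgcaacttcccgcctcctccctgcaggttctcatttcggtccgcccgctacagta
H2aw (chr11:58954513-58954684, plus strand): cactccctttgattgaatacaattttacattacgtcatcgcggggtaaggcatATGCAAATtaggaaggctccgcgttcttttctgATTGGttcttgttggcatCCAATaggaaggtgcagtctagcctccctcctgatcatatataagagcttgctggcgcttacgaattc
Among 61 upstream sequences of 250 bases that matched 60 of the 67 genes, 51 (83.6%) held CCAAT, against 33.8% of 32851 upstream sequences in the table. TATAAA was in 29 (47.5%, against 12.4%), the octamer in 14 (23.0%, against 1.60%) and the H1 box in 8 (13.1%, against 6.25%). CCAAT stood upstream of all 18 H2A and all 17 H2B entries but of only 3 of 11 H4 entries, and the octamer was found upstream of 7 H2A and 7 H2B entries and of no H1, H3 or H4 entry. The H1 box was upstream of 4 of 5 H1 genes. No motif match was counted for H4c11 in this window. In the printed stretches TATAAA began 33 bases before the start in H1f1, 27 in H1f4 and 147 in H3c11. It was absent from those of H2ac15 and H2aw. Only this exact spelling was counted, so runs of T and A spelled otherwise, such as those close to the start in H3c11 and H2aw, were left out. A match is a description of letters and not of binding, and overlapping upstream stretches of divergent genes share their matches.

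The genes are short, with a median length of 490 bp, and 61 of 67 are under 1000 bp. A window of 600 bp at a start can thus hold part of the gene body as well. Some windows lie at a 3′ end and hold no start of the nearest gene, as at H1f4. The window between H3c3 and H2bc3 holds neither start. A region was present for 18 of 19 H2A genes and 18 of 19 H2B genes, but for 2 of 5 H1, 4 of 12 H3 and 2 of 12 H4 genes. The genes without a region were H1f2, H1f3 and H1f5, the H2A and H2B genes H2ac4 and H2bc18, the H3 genes H3c1, H3c2, H3c4, H3c6, H3c10, H3c13, H3c14 and H3c15, and the H4 genes H4c1, H4c2, H4c3, H4c4, H4c6, H4c9, H4c12, H4c14, H4c17 and H4c18. Reads over these genes were not analysed here. On chromosome 13 the genes form a run of 24 genes over 327.9 kb (chr13:21715711-22043658) and a run of 30 genes over 403.9 kb (chr13:23531044-23934913). The chromosome 3 cluster spans 50.3 kb (chr3:96219885-96270192) and that on chromosome 11 spans 6.3 kb (chr11:58948911-58955192). Of the 28 regions, at least 12 serve a pair of genes whose starts face away from each other, 11 of these an H2A and an H2B gene. The pair H2bc1 and H2ac1 enters with 2 windows. Of these, the window at the 3′ end of H2bc1 lies outside the gap between the starts. No strand was available for some genes, among them H2bc4, H2bc21, H2ac14 and H3c7, so pairs with these genes were not counted. All 28 passed the filter on low counts, with mean counts from 41.4 to 11586 reads.

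Histone regions were among the most transcribed regions of these cells. At 0 min they took 6 of the 10 highest places and 18 of the 50 highest among 54299 tested regions, and 23 of the 28 stood above the 99th percentile. The highest region of all lay between H2ac24 and H4bc24, the latter an H2B gene by its older name Hist1h2br. The 28 regions together held 2.29% ± 0.235 (SD, n = 3) of the reads in all regions at 0 min. Histone genes of a class have nearly identical sequences, and how reads with several placements were treated is not given in the sources used here, so the split of reads between copies is uncertain.

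Summed over the 28 regions, the libraries held 22587, 24972 and 20474 CPM at 0 min, 30383, 28157 and 28375 CPM at 15 min, and 17172, 21318 and 20966 CPM at 30 min. All 15 min libraries lay above all 0 min and all 30 min libraries, while the 0 and 30 min libraries overlapped. The means went from 22678 ± 2250 (SD, n = 3) through 28972 ± 1227 to 19819 ± 2299 CPM over the 3 times. The 15 min mean was 1.28 times that at 0 min, and the 30 min mean 0.684 times that at 15 min. In these bulk cells a change in the share of cells replicating their DNA and a change in transcription per cell cannot be told apart.

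The sum on chromosome 13 followed this order, at 18688 ± 1943, 24134 ± 1274 and 16143 ± 2125 CPM at 0, 15 and 30 min. The chromosome 3 sum did too, at 3730 ± 262, 4620 ± 169 and 3487 ± 173 CPM, with ratios of 1.24 at 15 to 0 min and 0.755 at 30 to 15 min. The chromosome 11 regions did not: their sums were 259.2 ± 53.1, 217 ± 16.0 and 189 ± 4.78 CPM, lowest at 30 min. By class, with each region placed by its nearest gene end, the ratio of 15 to 0 min was 1.72 for H1, 1.34 for H3, 1.25 for H2A and H2B together and 1.20 for H4. The ratio of 30 to 15 min was 0.546, 0.681, 0.690 and 0.693 in the same order. These ratios between classes were not tested against each other.

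**Figure D1:**
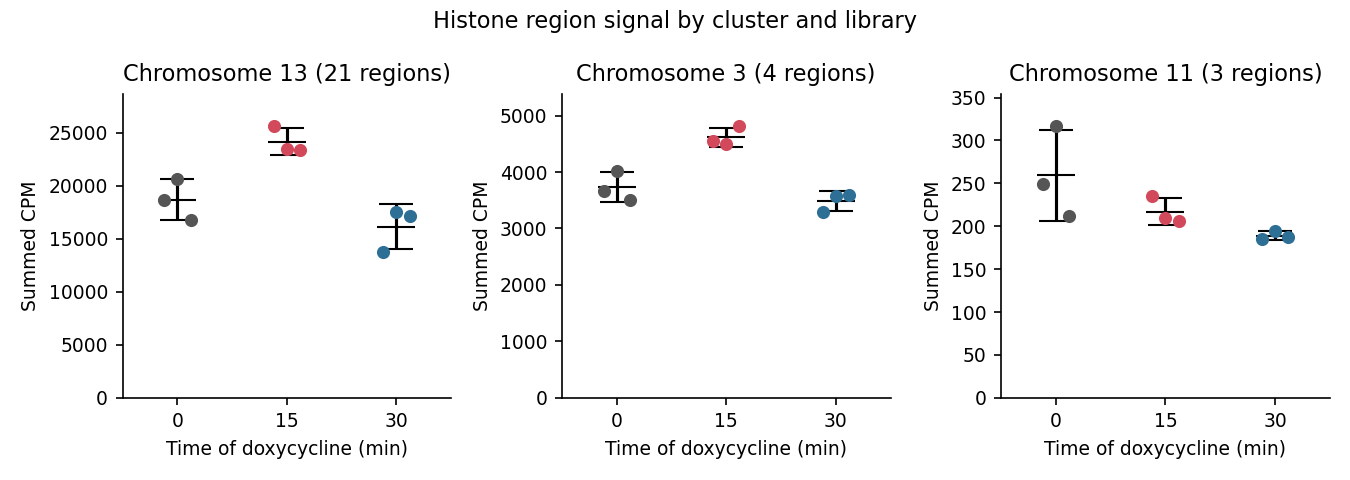
Summed CPM of the histone regions of each cluster (vertical axis, from 0) at 0, 15 and 30 min of doxycycline (horizontal axis). Points are libraries 1 to 3 from left to right, long bars the mean and short bars 1 SD; the 15 min points lie highest on chromosomes 13 and 3, and the chromosome 11 means are 259.2, 217 and 189 CPM.

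At 15 against 0 min, 16 of 28 histone regions rose and none fell (edgeR's quasi-likelihood test, Benjamini-Hochberg adjusted p under 0.05 over all 54299 regions). The background was 4.29% of tested regions called higher, 3.96% lower and 8.25% in either direction, against 57.1% of the histone regions called higher. The median log2 change of the histone regions was 0.35, beside 0.03 over all tested regions and -0.15 over 16310 other regions at gene ends. Smaller changes can be called where reads are many, so the histone regions were also set beside 192 other gene-end regions with a mean of at least 1000 reads, of which 8.85% were called higher, with a median of 0.05. At an unadjusted p under 0.05 there were 27 of the 28, 25 of them higher. Among all 54299 tested regions there were 12586, in either direction. Of the called regions 13 of 21 were on chromosome 13, 3 of 4 on chromosome 3 and 0 of 3 on chromosome 11. In 18 regions every 15 min library lay above every 0 min library (background 13.7%), and in 1, beside H2bu2, every 15 min library lay below (background 11.8%).

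The count at 15 against 0 min depended on single libraries: it was 8 without library 1 of 0 min, 5 without library 3 of 0 min, 6 without library 1 of 15 min and 10 without library 2 of 15 min, and 7 by DESeq2's Wald test, all of them higher. With libraries scaled on gene-end regions alone it was 25, as that scaling moved the median of all tested regions to 0.18 and that of the histone regions to 0.49. Of the 2 libraries that stood apart from their groups, leaving out library 3 of 15 min gave 19, and leaving out library 2 of 0 min, in which the histone sum was the highest of its group, gave 20. H2bc13/H2ac13, H3c11, H1f4, H1f1 and H2ac18 were the 5 called in every one of the 9 fits that left a library out. Among all tested regions the number called higher also moved, from 2331 to 1075 without library 1 of 0 min and 1502 without library 3. It was 1289 without library 1 of 15 min, 1090 without library 2 and 2932 without library 3. Without library 2 of 0 min it was 2245, by DESeq2's Wald test 1672 and with gene-end scaling 4048.

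At 30 against 15 min, 22 of 28 histone regions fell and none rose (78.6%), with a median log2 change of -0.52. The background was 0.49% of tested regions called lower (0.704% in either direction, 0.214% higher), 0.521% among the 192 other gene-end regions with a mean of at least 1000 reads and 0.202% among other gene-end regions. The histone regions were thus 22 of the 266 regions called lower genome-wide (8.27%) and 22 of the 55 called lower at gene ends (40.0%). By cluster, 19 of 21 fell on chromosome 13, 3 of 4 on chromosome 3 and 0 of 3 on chromosome 11. In 25 regions every 30 min library lay below every 15 min library (background 8.17%) and in none above (7.8%). The count was 14 without library 1 of 15 min and 12 without library 1 of 30 min, and 23 without library 3 of 15 min, and 10 regions were called in all 9 fits that left a library out. DESeq2's Wald test called 22.

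Both a rise at 15 min and a fall between 15 and 30 min were called in 15 of the 28 regions (53.6%). The same pattern was called in 0.407% of all tested regions, in 31 of 16310 other gene-end regions (0.19%) and in 1 of the 192 with at least 1000 reads (0.521%). The comparisons share the 15 min libraries, so a high value in those libraries enters both. The number of such regions was 7 by DESeq2's Wald test, 21 with gene-end scaling, and 5 without library 3 of 0 min, 6 without library 1 of 15 min, 8 without library 1 of 0 min, 9 without library 2 of 15 min and 10 without library 1 of 30 min.

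At 30 against 0 min, 2 of 28 regions fell, H2ac11/H2bc11 and H2aw, and none rose (10 regions at an unadjusted p under 0.05, all lower). Among all 54299 tested regions 8248 were at that unadjusted p, in either direction. The background was 0.497% of tested regions called lower, 1.24% higher and 1.74% in either direction. The median log2 change was -0.21, beside 0.00 over all tested regions and -0.11 at other gene ends, and 26 of 28 values were below 0. In 6 regions every 30 min library lay below every 0 min library (background 9.39%), and in none above (11%). No histone region was called with gene-end scaling, nor when a 0 min library (1 or 2) or a 30 min library (1 or 3) was left out. Without library 2 of 30 min 1 region was called, without library 3 of 0 min or of 15 min there were 3, and DESeq2's Wald test called 1.

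**Figure D2:**
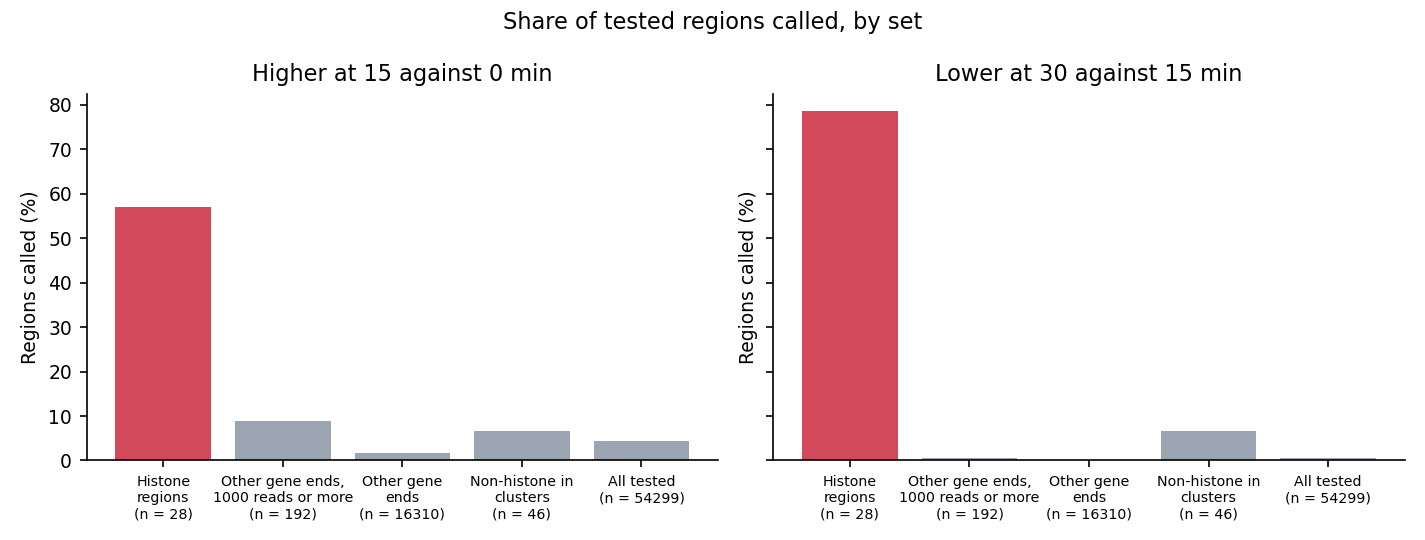
Percentage of tested regions called higher at 15 against 0 min (left) and lower at 30 against 15 min (right), for the histone regions and 4 other sets with their number of regions. Bars start at 0; the histone bars stand at 57.1% and 78.6% and the bars of all tested regions at 4.29% and 0.49%.

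Linker histone H1, which binds DNA between nucleosomes, had regions at H1f4 and H1f1, and both rose and fell again. The H1f4 region (chr13:23621487-23622086) is centred 9 bp from the annotated 3′ end of H1f4, which lies on the minus strand, and within 1 kb of the start of H2bc6, so the upstream sequence printed above lies outside its window. It gave 247, 292 and 299 CPM at 0 min, 466, 469.5 and 514 CPM at 15 min, and 229, 228 and 262 CPM at 30 min. Each 15 min library stood above all others, by a log2 change of 0.79 ± 0.10 (SE; 1.73-fold, edgeR adjusted p = 1.12e-05), and 30 min lay below 15 min by 1.01 ± 0.10 (0.496-fold, edgeR adjusted p = 1.91e-06). H1f1 (chr13:23763155-23763754), whose window holds its start, gave 236, 275 and 236 CPM at 0 min, 475, 405 and 396 CPM at 15 min, and 242, 233 and 292 CPM at 30 min. The 15 min libraries were again apart from the rest, with a rise of 0.77 ± 0.11 (1.71-fold, edgeR adjusted p = 3.93e-05) and a later change of -0.73 ± 0.11 (edgeR adjusted p = 0.000307). The 30 and 0 min libraries of both overlapped, at -0.22 ± 0.10 for H1f4 and 0.04 ± 0.11 for H1f1.

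Histone H3, with H4 the core of the nucleosome, had 4 regions and all 4 rose at 15 min. H3c11 (chr13:21783251-21783850) was the highest of them, at 1394, 1573 and 1309 CPM at 0 min, 2046, 2022 and 1932 CPM at 15 min, and 1193, 1356 and 1280 CPM at 30 min. Its 15 min libraries lay above all 6 others, with a log2 change of 0.49 ± 0.08 (edgeR adjusted p = 0.000273) and then -0.65 ± 0.08 from 15 to 30 min (edgeR adjusted p = 3.42e-05). The region between H3c3 and H2bc3 (chr13:23745757-23746356), whose starts lie 1212 bp apart, gave 1404, 1553 and 1198 CPM at 0 min, 1937, 1742 and 1606 CPM at 15 min, and 1180, 1302 and 1330 CPM at 30 min. There too the 15 min libraries were highest and did not overlap the others, at 0.35 ± 0.09 and then -0.47 ± 0.09 (edgeR adjusted p = 0.0154 and 0.00606). At H2bc9/H3c7 (chr13:23543905-23544504) the values were 608, 849.8 and 596 CPM at 0 min, 963, 903 and 837 CPM at 15 min, and 538, 663 and 617 CPM at 30 min. The second library of 0 min reached into the 15 min range, and the changes of 0.40 ± 0.11 and -0.57 ± 0.11 were called (edgeR adjusted p = 0.0243 and 0.0069). At H2ac10/H3c8 (chr13:23534953-23535552) they were 537, 801 and 542 CPM at 0 min, 988, 869.5 and 689 CPM at 15 min, and 583, 614 and 601 CPM at 30 min. This region rose by 0.44 ± 0.12 (edgeR adjusted p = 0.0273) although library 2 of 0 min overlapped the 15 min libraries, and its change of -0.50 ± 0.12 to 30 min missed the threshold (edgeR adjusted p = 0.0555).

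Histone H4 had 2 regions and neither passed the test at 15 against 0 min. H4c8 (chr13:23530792-23531391) gave 621, 659 and 638 CPM at 0 min, 756, 660.2 and 786 CPM at 15 min, and 450.0, 546 and 561 CPM at 30 min. The 15 min libraries lay just above the 0 min ones, a change of 0.20 ± 0.09 (edgeR adjusted p = 0.195). The 30 min libraries lay below both, and the region fell by 0.50 ± 0.09 from 15 to 30 min (edgeR adjusted p = 0.0051). H4c11 (chr13:21734515-21735114) gave 112, 192 and 96.2 CPM at 0 min, 253, 191 and 134 CPM at 15 min, and 124, 121 and 126 CPM at 30 min. Its 0 and 15 min libraries overlapped and spread widely, so 0.53 ± 0.19 and -0.65 ± 0.19 missed the threshold (edgeR adjusted p = 0.0767 and 0.137) in spite of sizes close to those of the H3 regions.

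**Figure D3:**
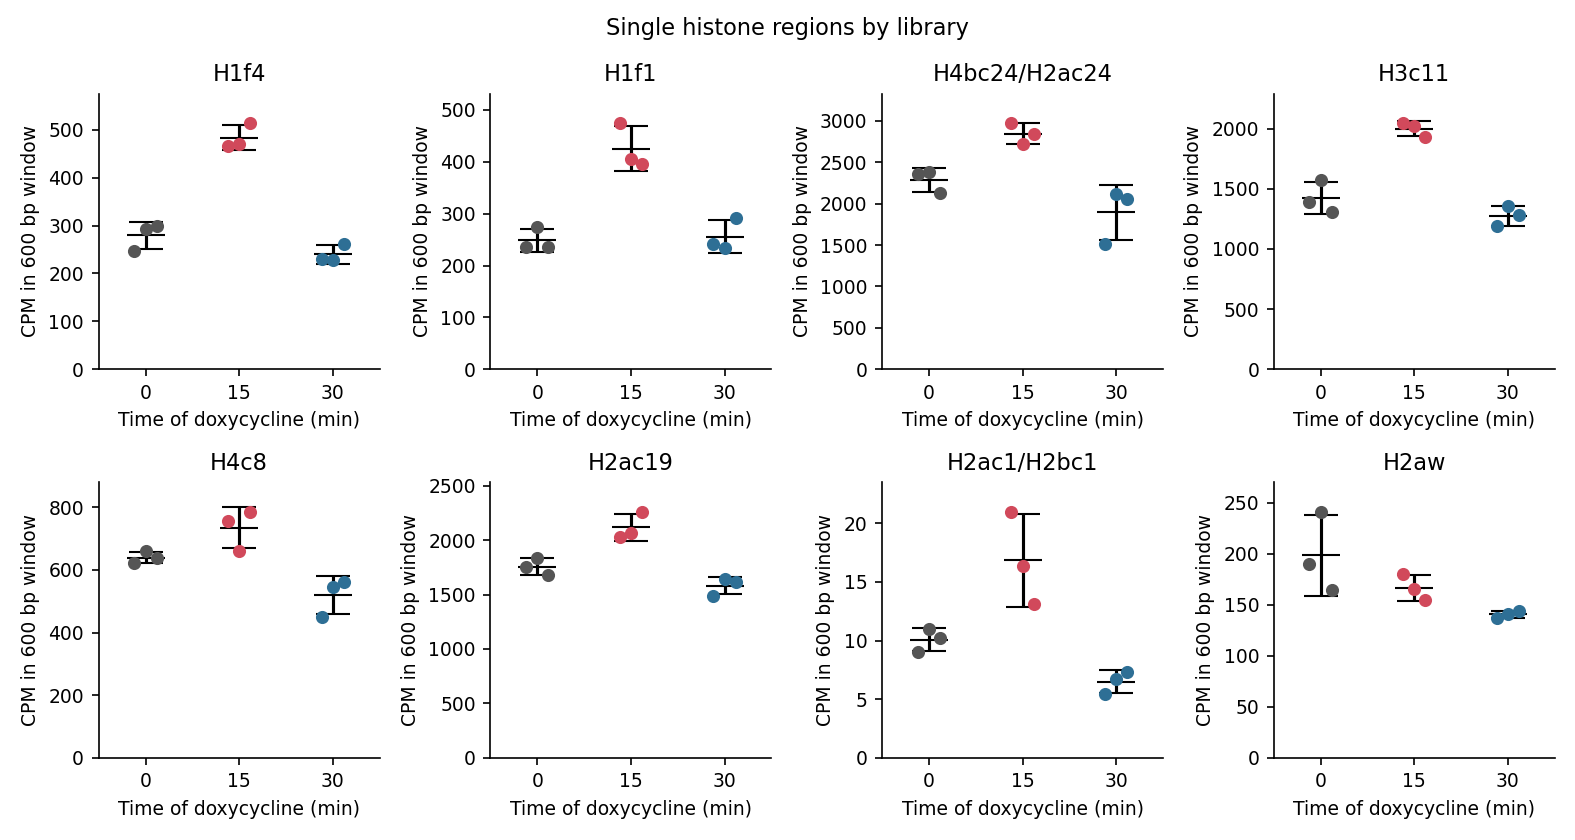
CPM in the 600 bp window (vertical axis, from 0) of 8 histone regions at 0, 15 and 30 min of doxycycline (horizontal axis). Points are libraries 1 to 3 from left to right, long bars the mean and short bars 1 SD. The 15 min points of H1f4, H1f1, H3c11, H2ac24/H4bc24 and H2ac19 lie above all others, and those of H2aw do not.

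Histones H2A and H2B, which form the dimers on either side of the H3 and H4 core, held 20 of the 28 regions when each region is placed by its nearest gene end, of which 10 rose at 15 min and 16 fell between 15 and 30 min. The 4 regions H3c3/H2bc3, H2bc9/H3c7, H2ac10/H3c8 and H2bc6/H1f4 also serve an H2A or H2B gene, are placed with H3 or H1, and all rose at 15 min. In the first chromosome 13 run the region with most reads lay between H2ac24 and H4bc24 (chr13:21833406-21834005), whose starts are 267 bp apart, with 2360, 2385 and 2123 CPM at 0 min, 2973, 2723 and 2842 CPM at 15 min, and 1517, 2120 and 2055 CPM at 30 min. It rose by 0.31 ± 0.09 (edgeR adjusted p = 0.0312) and fell by 0.59 ± 0.09 (edgeR adjusted p = 0.000782), and all 30 min libraries also lay below all 0 min libraries. H2ac11/H2bc11 (chr13:22042601-22043200) gave 1646, 1733 and 1427 CPM at 0 min, 2041, 1999 and 1914 CPM at 15 min, and 1118, 1403 and 1307 CPM at 30 min. No times overlapped here, and all 3 contrasts were called: 0.31 ± 0.08 at 15 against 0 min, -0.64 ± 0.09 at 30 against 15 min and -0.33 ± 0.09 at 30 against 0 min (edgeR adjusted p = 0.0234, 0.000133 and 0.0438).

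H2bc13/H2ac13 (chr13:21715903-21716502) gave 1155, 1183 and 1071 CPM at 0 min, 1606, 1418 and 1568 CPM at 15 min, and 791, 1116 and 1086 CPM at 30 min. Its 15 min libraries stood clear of the others, with 0.43 ± 0.10 and then -0.62 ± 0.10 (edgeR adjusted p = 0.00654 and 0.000909). At H2ac15/H2bc15 (chr13:21753681-21754280), whose starts are 163 bp apart, the libraries gave 905, 1145 and 774 CPM at 0 min, 1488, 1353 and 1116 CPM at 15 min, and 726, 819 and 874 CPM at 30 min. Library 3 of 15 min lay below library 2 of 0 min, and the region was called in both steps, at 0.49 ± 0.11 and -0.71 ± 0.11 (edgeR adjusted p = 0.00767 and 0.000955). H2ac22/H2bc22 (chr13:21787082-21787681) gave 746, 772 and 646 CPM at 0 min, 1020, 908 and 974 CPM at 15 min, and 558, 756 and 759 CPM at 30 min. The 15 min libraries were highest, at 0.42 ± 0.10 and then -0.48 ± 0.10 (edgeR adjusted p = 0.00964 and 0.0155). At H2bc14 and the pseudogene H2ac14 (chr13:21721634-21722233) the libraries gave 919, 1013 and 785 CPM at 0 min, 1171, 1108 and 1117 CPM at 15 min, and 704, 888 and 844 CPM at 30 min. Both steps passed there, at 0.32 ± 0.09 and -0.48 ± 0.09 (edgeR adjusted p = 0.0325 and 0.00843).

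The other 2 regions of this run did not pass at 15 against 0 min but fell afterwards. H2bc23/H2ac23 (chr13:21810001-21810600) gave 1609, 1642 and 1378 CPM at 0 min, 2149, 1852 and 1931 CPM at 15 min, and 950.3, 1532 and 1465 CPM at 30 min. Its 15 min libraries lay above all others, at 0.36 ± 0.12 (edgeR adjusted p = 0.0532), and the later change was -0.59 ± 0.12 (edgeR adjusted p = 0.00843). H2ac12/H2bc12 (chr13:22035429-22036028) gave 1214, 1231 and 1038 CPM at 0 min, 1456, 1316 and 1448 CPM at 15 min, and 760.5, 1086 and 1101 CPM at 30 min. Here the steps were 0.28 ± 0.10 and -0.52 ± 0.10 (edgeR adjusted p = 0.101 and 0.0108), again with no overlap at 15 min. In both regions library 1 of 30 min was the lowest of the 9.

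In the second chromosome 13 run, 3 H2A and H2B regions of many reads fell between 15 and 30 min without passing at 15 against 0 min. H2ac8/H2bc8 (chr13:23570957-23571556) gave 949.6, 1144 and 822 CPM at 0 min, 1290, 1206 and 1083 CPM at 15 min, and 681, 836 and 833 CPM at 30 min. Library 2 of 0 min overlapped the 15 min libraries there, the first step was 0.30 ± 0.10 (edgeR adjusted p = 0.0738) and the second -0.61 ± 0.10 (edgeR adjusted p = 0.00194). H2bc7/H2ac7 (chr13:23573967-23574566) gave 1019, 1004 and 884 CPM at 0 min, 1212, 1107 and 1323 CPM at 15 min, and 665, 962 and 904 CPM at 30 min. It just missed in the first step without overlap, at 0.32 ± 0.10 (edgeR adjusted p = 0.0525), and fell by 0.53 ± 0.10 (edgeR adjusted p = 0.00939). H2ac6/H2bc4 (chr13:23683760-23684359) gave 984, 1170 and 867 CPM at 0 min, 1284, 1166 and 1116 CPM at 15 min, and 677, 957 and 869 CPM at 30 min. It had the smallest first step among the H2A and H2B regions of chromosome 13, 0.24 ± 0.11 (edgeR adjusted p = 0.18), and fell by 0.51 ± 0.11 (edgeR adjusted p = 0.0174).

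H2bc1 and H2ac1 encode histones known chiefly from the testis, and their 2 windows held few reads. The window on the H2ac1 side holds both annotated starts, 280 bp apart, and that on the H2bc1 side lies at the 3′ end of H2bc1. The window on the H2ac1 side (chr13:23934016-23934615) gave 9.03, 10.97 and 10.2 CPM at 0 min, 21, 16.4 and 13.1 CPM at 15 min, and 5.47, 6.71 and 7.35 CPM at 30 min, with a mean count of 55.8 reads. It rose by 0.76 ± 0.22 and fell by 1.39 ± 0.23 (edgeR adjusted p = 0.0306 and 0.00142). The window on the H2bc1 side (chr13:23933356-23933955) gave 7.08, 6.49 and 9.18 CPM at 0 min, 10, 11.2 and 16.5 CPM at 15 min, and 6.92, 4.10 and 5.21 CPM at 30 min. Its 15 min libraries lay above all others, at 0.72 ± 0.26 (edgeR adjusted p = 0.081) and then -1.19 ± 0.26 (edgeR adjusted p = 0.0255). These 2 windows lay at the 57.4th and 64.4th percentile of tested regions at 0 min, far below the other chromosome 13 members, and their log2 changes from 15 to 30 min were the largest of the 28 in size.

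On chromosome 3, 3 of 4 regions rose and fell. H2ac19 (chr3:96239914-96240513) gave 1751, 1837 and 1683 CPM at 0 min, 2031, 2062 and 2262 CPM at 15 min, and 1489, 1641 and 1614 CPM at 30 min. Its 15 min libraries were highest and its 30 min libraries lowest without overlap, at 0.27 ± 0.07 and then -0.42 ± 0.07 (edgeR adjusted p = 0.0213 and 0.00227). H2ac18 (chr3:96245290-96245889) gave 1270, 1440 and 1240 CPM at 0 min, 1662, 1654 and 1729 CPM at 15 min, and 1192, 1282 and 1325 CPM at 30 min. It rose by 0.35 ± 0.08 and fell by 0.41 ± 0.08 (edgeR adjusted p = 0.00447 and 0.00539). H2ac18 and H2ac19 carry older names that mark them as copies (Hist2h2aa1 and Hist2h2aa2), so their reads may be shared.

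At H2ac21, H2ac20 and H2bc21 lay 2 windows that overlap each other, so some reads may count in both. The first covers the 3′ ends of H2ac21 and H2ac20 and holds the start of neither, while the second holds the start of H2ac20. The first (chr3:96220145-96220744) gave 390.2, 482 and 365 CPM at 0 min, 515, 551 and 503 CPM at 15 min, and 366, 413 and 402 CPM at 30 min. It rose by 0.34 ± 0.10 and fell by 0.41 ± 0.10 (edgeR adjusted p = 0.0305 and 0.0469). The second (chr3:96220713-96221312) gave 246, 262 and 226 CPM at 0 min, 336, 236 and 319.9 CPM at 15 min, and 240.5, 238 and 257 CPM at 30 min. Library 2 of 15 min lay among the 0 and 30 min libraries, and neither step passed, at 0.28 ± 0.11 and -0.28 ± 0.11 (edgeR adjusted p = 0.121 and 0.389).

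On chromosome 11, where the members came in through their older Hist3 names, the order of the times differed. The region between the pseudogene H2bu1-ps and H2aw (chr11:58954365-58954964) gave 189.7, 241 and 164 CPM at 0 min, 179.7, 165 and 155 CPM at 15 min, and 137, 141 and 144 CPM at 30 min. The 15 min libraries overlapped those of 0 min, and 30 min lay below both without overlap. The change was -0.25 ± 0.12 at 15 against 0 min (edgeR adjusted p = 0.196), -0.24 ± 0.12 at 30 against 15 min (edgeR adjusted p = 0.519) and -0.50 ± 0.12 at 30 against 0 min, the last of which was called (edgeR adjusted p = 0.0277). H2bu2, an H2B gene, had a window at each end. At its start (chr11:58948533-58949132) the libraries gave 34.2, 47 and 27.5 CPM at 0 min, 36.3, 25.9 and 32.1 CPM at 15 min, and 30.97, 28.9 and 25.4 CPM at 30 min. All times overlapped, with -0.21 ± 0.18 at 15 against 0 min (edgeR adjusted p = 0.52). The window at its other end (chr11:58949353-58949952) gave 24.98, 28.4 and 20.4 CPM at 0 min, 19.3, 18.3 and 19.4 CPM at 15 min, and 17.5, 24.8 and 17.8 CPM at 30 min. The 15 min libraries were below all 0 min libraries, a change of -0.38 ± 0.18 that missed the threshold (edgeR adjusted p = 0.213). All 3 windows kept a negative change at 15 against 0 min under each scaling tried, down to -0.06 at H2bu2 with gene-end scaling. With a library left out in turn, the change at the start of H2bu2 ranged from -0.38 to 0.01, the latter without library 2 of 0 min, so its sign depended on that library. Whether the 3 windows differ from the other clusters was not tested.

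**Figure D4:**
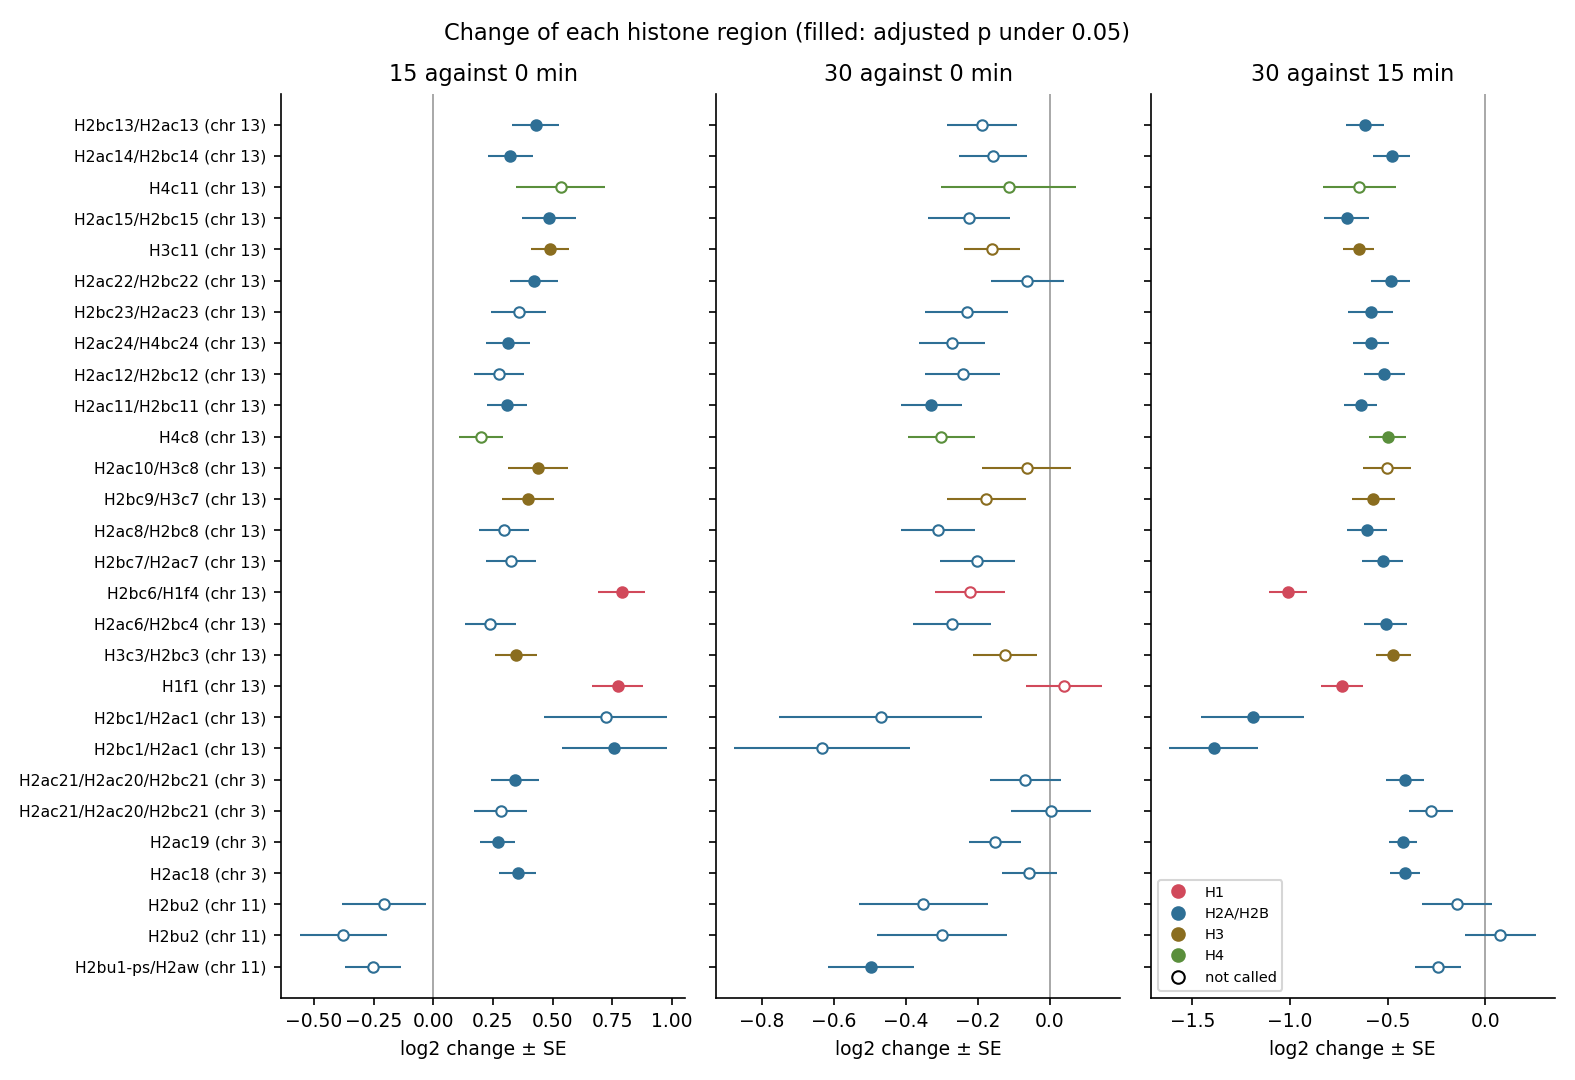
Log2 change ± SE of each of the 28 histone regions (rows, by chromosome and position) in the 3 comparisons (panels). Filled points passed an adjusted p under 0.05 and open points did not; colours give the class. All points on chromosomes 13 and 3 lie above 0 at 15 against 0 min and below 0 at 30 against 15 min, and the 2 H1 points lie at 0.77 and 0.79 in the first panel.

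Genes that regulate histone transcription and processing held few calls. Of 23 such genes 20 had a region, and of 26 tested regions none was higher and 3 were lower at 15 against 0 min (11.5%), with a median of -0.25 and 9 at an unadjusted p under 0.05. These regions were taken at gene ends, where 7.55% of the other tested regions were called lower with a median of -0.15, against 3.96% of all tested regions, so the share called is near that background. Of the 16310 other gene-end regions 4128 were at an unadjusted p under 0.05. Lsm10, a protein of the U7 ribonucleoprotein, was lower at 1 of its 3 regions, at 22.3, 22.4 and 27.0 CPM at 0 min, 10.2, 10.9 and 11.7 CPM at 15 min and 18.2, 19.6 and 19.2 CPM at 30 min. That region fell by 1.13 ± 0.18 on the log2 scale (edgeR adjusted p = 0.000283) and rose by 0.81 ± 0.18 from 15 to 30 min (edgeR adjusted p = 0.0316). Zfp473, which binds the U7 machinery, fell by 0.55 ± 0.17 and Cdk2, the kinase that acts on NPAT, by 0.49 ± 0.13 at 15 against 0 min (edgeR adjusted p = 0.0420 and 0.0172). Npat itself was at -0.34 ± 0.15 and Slbp, the stem-loop binding protein, at -0.30 ± 0.11, and neither was called. The count was 1 with gene-end scaling, 1 when either library 1 or library 2 of 15 min was left out and 5 without library 3 of 15 min.

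Genes of replication itself and the replication-independent histones were mostly not called. Of 26 replication genes 22 had a region. Among their 25 regions none was higher and 2 were lower at 15 against 0 min (8%, against 7.55% of other gene-end regions and 3.96% of all tested regions), with a median of 0.03. These were Rfc1, of the clamp loader, at -0.89 ± 0.21, and Gins2, of the replicative helicase, at -0.59 ± 0.18 (edgeR adjusted p = 0.00919 and 0.0420). Rfc1 then rose by 0.92 ± 0.21 from 15 to 30 min (edgeR adjusted p = 0.0312). With gene-end scaling 3 regions of this list were higher and 1 lower at 15 against 0 min. Leaving out the first or the second 0 min library, the first or the second 15 min library or the third 30 min library took its count to 1, and leaving out the third 15 min library took it to 4. Of 10 regions at 9 of 11 replication-independent histone genes, 1 was lower at 15 against 0 min (10%, beside the same background), Macroh2a2, which encodes a large H2A variant, at -0.63 ± 0.18 (edgeR adjusted p = 0.0338). It was not called with gene-end scaling, nor without 0 min library 1, 0 min library 3, 15 min library 1 or 15 min library 2. No region of either list was called at 30 against 0 min by edgeR or DESeq2, with 3 of the histone variants and 0 of the replication genes at an unadjusted p under 0.05. Of the 16310 other gene-end regions 2345 were at that unadjusted p.

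Inside the clusters lay 112 regions that serve no member gene, 46 of them tested, of which 3 were higher (6.52%, against 4.29% of all tested regions) and 1 lower (2.17%, against 3.96%) at 15 against 0 min, with a median of 0.00. These shares at 15 against 0 min are close to the background. At 30 against 15 min 3 of the 46 were lower (6.52%, against 0.49% of all tested regions) and 0 higher. A region 5.59 kb from H2bc14 (chr13:21727813-21728412) gave 15.2, 24.8 and 17.8 CPM at 0 min, 59.2, 61.8 and 46.6 CPM at 15 min and 33.2, 30.9 and 31.5 CPM at 30 min. It rose by 1.54 ± 0.17 (edgeR adjusted p = 1.8e-06), more than any histone region, and fell by 0.81 ± 0.16 from 15 to 30 min (edgeR adjusted p = 0.00865). At 30 against 0 min, where no histone region was called higher, it was still higher, by 0.73 ± 0.17 (edgeR adjusted p = 0.0277), the 1 neighbour called in that comparison. A region 7.11 kb from H4c17 (chr13:21818959-21819558) gave 126, 204 and 159 CPM, then 266, 305 and 207 CPM, then 130, 151 and 116 CPM. It too rose, by 0.67 ± 0.14, and fell, by 0.97 ± 0.15 (edgeR adjusted p = 0.00426 and 0.000478). A region 8.06 kb from H4c17 fell from 15 to 30 min by 0.84 ± 0.14 (edgeR adjusted p = 0.00142). Gm33387, which lies within the long annotated span of H2bc6, rose by 0.88 ± 0.26 at 15 against 0 min (edgeR adjusted p = 0.0313). In the same comparison the zinc finger gene Zfp184 fell by 0.58 ± 0.18 at 1 region (edgeR adjusted p = 0.0382). Its other tested region was not called, at -0.46 ± 0.22 (edgeR adjusted p = 0.209). The count called at 15 against 0 min was 2 when either library 1 or library 2 of 15 min was left out.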

How the data were processed

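The 9 PRO-seq libraries, 3 at each time, were grouped by their titles. The deposited table holds raw read counts in 174289 windows of 600 bp on mm10, and its companion region lists, also deposited, hold other values, namely where each region begins and ends. Per the submitters' processing notes, HISAT2, featureCounts and DESeq2 1.26.0 were used by the authors; settings, the strand counted and the handling of reads with several placements are not given in the sources used here. Library totals are reads in the regions, not sequenced depth.

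The histone genes, comparison lists and alternatives were chosen with earlier results of these data known. Every histone region that passed the filter was named. Of the comparison lists, called regions were named. Printed upstream sequences were those of genes of called regions and of uncalled genes for comparison. H4c11 and H2aw are the uncalled ones at 15 against 0 min. Gene names and upstream sequences came from RefSeq tables of GRCm38.p6. Proteins were not analysed here.

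Counts were tested in R 4.3.3 with edgeR 4.0.16. Its default filter on the groups kept 54299 regions. TMM factors lay between 0.971 and 1.02. A quasi-likelihood fit over all 9 libraries had the 3 times as groups (common dispersion 0.0228), and Benjamini-Hochberg adjustment over the tested regions gave calls at 0.05. The SE is the size of a log2 change divided by the square root of F. The script was tested on simulated counts. Alternatives were DESeq2 1.42.0, other scalings, filters, windows and limits, the replicate number as a block and each library left out. No clear pairing by replicate number was seen. In their deviations from the group means, same-numbered libraries correlated at -0.048 to 0.175 and other-numbered ones at -0.199 to 0.102.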

Additional observations from a re-analysis of the deposited data

Results flagged for a closer look

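For 22 histone regions the change at 15 min differed from the change at 30 min, tested directly as 30 against 15 min with edgeR's quasi-likelihood test. The log2 differences were -1.01 at H1f4 and -0.73 at H1f1. They were -0.65 at H3c11, -0.57 at H2bc9/H3c7 and -0.47 at H3c3/H2bc3, and -0.50 at H4c8. Among H2A and H2B genes in the first chromosome 13 run they were -0.71 at H2ac15/H2bc15, -0.64 at H2ac11/H2bc11, -0.62 at H2bc13/H2ac13, -0.59 at H2ac24/H4bc24 and at H2bc23/H2ac23, -0.52 at H2ac12/H2bc12, and -0.48 at H2ac14/H2bc14 and at H2ac22/H2bc22. In the second run they were -0.61 at H2ac8/H2bc8, -0.53 at H2bc7/H2ac7 and -0.51 at H2ac6/H2bc4, with -1.39 and -1.19 at the 2 windows of H2bc1/H2ac1. On chromosome 3 they were -0.42 at H2ac19, -0.41 at H2ac18 and -0.41 at the first window of H2ac21/H2ac20/H2bc21. Both changes are measured against the same 0 min libraries. Without library 1 of 30 min 12 of these differences were called, and without library 1 of 15 min 14.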

How the results depend on the processing

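No histone region that was called changed its direction under any alternative run, and the median log2 change of the histone regions kept its sign in all 3 comparisons. The number of histone regions called at 15 against 0 min was 16 and became 25 with TMM factors from gene ends and 7 by DESeq2's Wald test. At 30 against 0 min it was 2 and became 0 with TMM factors from gene ends, 4 without a filter and 1 by DESeq2's Wald test. At 30 against 15 min it was 22 and lay between 21 and 24 over the settings that kept all libraries. With a library left out in turn, it ranged from 5 to 20 at 15 against 0 min, from 0 to 3 at 30 against 0 min and from 12 to 24 at 30 against 15 min. Over all tested regions the calls numbered 4479, 945 and 382, and with a library left out ranged from 2123 to 6412, from 171 to 1510 and from 154 to 548. The causes were not tested. TMM factors from gene ends moved the median of all tested regions from 0.03 to 0.18 at 15 against 0 min and from 0.00 to 0.10 at 30 against 0 min, and the share of calls that were higher from 52% to 79.3% and from 71.4% to 88.7%. At 30 against 15 min that share went from 30.4% to 18.6%.

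With the replicate number as a replicate block, 20 histone regions were called at 15 against 0 min, 2 at 30 against 0 min and 23 at 30 against 15 min. The numbers showed no clear pairing of the libraries, since the best match at another time had the same number in 7 of 18 cases. That count cannot exclude a pairing. Depth limits the H2bc1 and H2ac1 windows most, at 41.4 and 55.8 reads on average, and changes at the 23 histone genes without a region could not be seen in these counts.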
